A study of Mus musculus with 768 samples.

Results

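Tumor-infiltrating NK cells that carried mRNA of Itga1, the gene of the integrin chain CD49a, but none of the chemokine receptor gene Cxcr6 were compared with NK cells that carried neither. A cell was taken when its well had 1000 to 3500 detected genes, Itga1 above 0 RPKM, Cxcr6 at 0 and fewer than 2 of the T cell receptor complex genes Cd3d, Cd3e and Cd3g above 0. These conditions were met by 67 of 768 wells, or of the 726 wells kept by the limits on detected genes. The members were thus selected on measured values of Itga1, Cxcr6 and the Cd3 genes, and these genes are described below without a test. Of the 67 members, 26 came from WT mice and 41 from PD-1-/- mice. The comparison wells, with neither Itga1 nor Cxcr6 under the same Cd3 limit, numbered 515, of which 56.1% were WT.

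All cells came from MTAP1A tumors, a transplanted fibrosarcoma line that derives from a mouse without Tap1, in C57BL/6 mice that were WT or lacked PD-1. The mice were 8 to 12 weeks old. Viable cells with NK1.1 and without CD3 at the surface were sorted singly from the pooled tumors of 3 mice per genotype, and read by SMART-SEQ2, which covers full-length transcripts and adds no molecular identifiers. Each genotype was 1 pool on 1 plate. Genotype, pool and plate therefore cannot be told apart, no test was made between genotypes, and the mouse behind each cell is not given in the sources used here. Cells of a plate are not replicates: the comparison of members with other wells was made within each plate, and its p-values rest on 2 pools. Shares of wells carry exact binomial 95% intervals, which cover counting error only.

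CD49a pairs with the beta 1 chain CD29 (Itgb1) to form a receptor for collagen and laminin. In mice CD49a marks NK cells and type 1 innate lymphoid cells that stay in tissues such as liver, uterus and salivary gland, whereas CD49b (Itga2), another collagen-binding chain, marks circulating NK cells. CXCR6, the receptor of CXCL16, is often found on the same tissue-resident cells, and TGF-beta can raise CD49a on NK cells. A transcript that is not detected in a single cell may still be present, since only part of the mRNA of a cell is captured.

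Among the 650 wells under the Cd3 limit, members made up 7.90% in WT (5.23% to 11.4%) and 12.8% in PD-1-/- (9.32% to 16.9%). These intervals overlapped. Within plate rows A and B members were 4 of 25 wells in WT (16%, 4.54% to 36.1%) and 6 of 39 in PD-1-/- (15.4%, 5.86% to 30.5%). The shares were 7.24% and 12.4% within rows C to P, and 9.03% and 12.8% within rows A to H. Rows A and B hold too few members to tell whether the shares differ by plate row. Members lay in 12 of 16 plate rows in WT and in 14 of 16 in PD-1-/-. Itga1 was more frequent where Cxcr6 was present: it was detected in 64.3% of Cxcr6-positive wells (35.1% to 87.2%) against 8.25% of Cxcr6-negative wells (5.46% to 11.9%) in WT, and in 46.3% (32.6% to 60.4%) against 15.4% (11.3% to 20.2%) in PD-1-/-. In both plates these intervals did not overlap.

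Itga1 itself ranged from 1.26 to 128.4 RPKM in WT members, with a median of 39.4 RPKM, and from 0.536 to 257.2 RPKM in PD-1-/- members, with a median of 21.7 RPKM. The levels of the plates overlapped nearly throughout. Since 1 read adds a fixed amount to the RPKM of a gene in a well, whole reads could be recovered for 77.8% of the values above 0. In members Itga1 rested on a median of 49 reads, 53 of 67 members had 10 or more reads, and 6 had 3 or fewer. The rule thus took in 17 members with Itga1 below 10 RPKM. The members had 1404 to 3467 detected genes; the nearest well above the upper limit had 3525, and 5 wells that met the other conditions were left out above it. The lowest Cxcr6 value that kept an Itga1-positive well out was 1.17 RPKM.

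The 8 markers of the NK-like list were all detected among the members of both plates, and every member and comparison well had at least 2 of them. Ncr1, the gene of NKp46, was found in 26 of 26 WT members and in 92.7% of PD-1-/- members, and Klrb1c, the gene of NK1.1, in every member. The cells were sorted on NK1.1, so Klrb1c does not test their type. These markers do not separate conventional NK cells from type 1 innate lymphoid cells. Eomes, which does, was not found in every member, nor in every comparison well. Of 7 T cell markers beyond the Cd3 genes, 2 were found in WT and 2 in PD-1-/- members, in 7.69% and 7.32% of wells, with a summed level of at most 11.9 and 45.6 RPKM, against 4.84% and 4.42% of comparison wells with at most 441 and 14.2 RPKM. Markers of neutrophils and of B cells were listed at 0 in every member, which allows up to 11.5% of such wells in WT and 7.32% in PD-1-/-. Markers of myeloid cells were found in 3 of 26 WT members (up to 137.6 RPKM summed) and in 2 of 41 PD-1-/- members (up to 198.3 RPKM), and Lyz2 was at 0 in all. Fibrosarcoma markers were found in 2 and 3 members, with at most 55.5 and 8.97 RPKM, and markers of the innate lymphoid types 2 and 3 in 1 and 1. Cell cycle markers were found in 15.4% of WT members against 18.7% of comparison wells, and in 31.7% of PD-1-/- members against 20.8%.

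Pdcd1, the gene of PD-1, was found in 1 of 26 members on the WT plate and in 7 of 41 on the plate labelled PD-1-/-. The comparison wells had 0% and 5.31%, and the 0% allows up to 1.04%. RPKM sums reads over the whole gene, so that reads from exons which a knockout leaves in place also count, and these values cannot check the label.

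**Figure D1:**
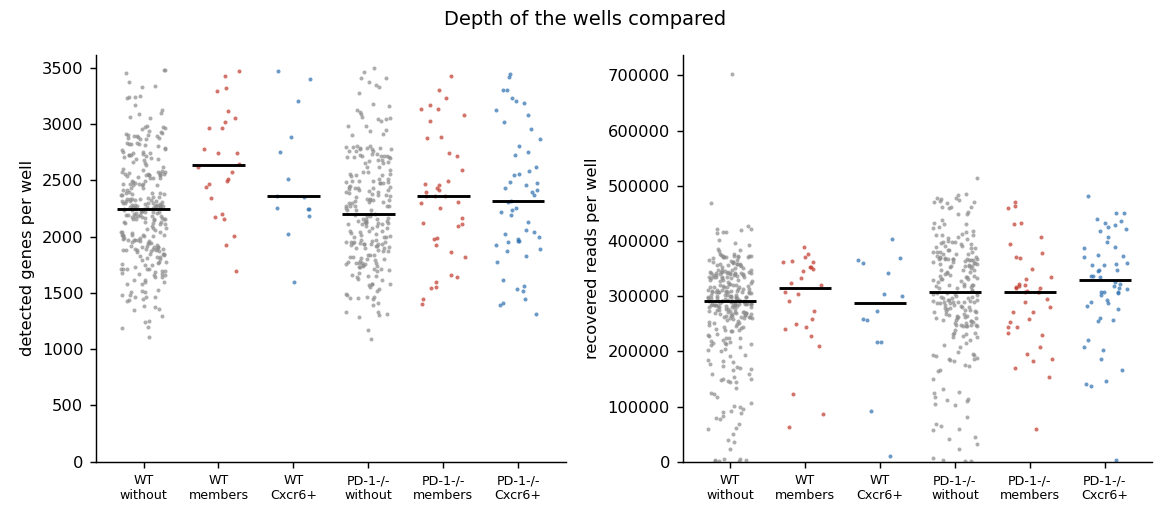
Detected genes per well (left) and recovered reads per well (right), for wells without Itga1 and Cxcr6 (grey), members (red) and Cxcr6-positive wells (blue) of each plate. Each point is 1 well and each bar a median. WT members had a median of 2632.5 detected genes, above the 2243 of the wells without Itga1 and Cxcr6, and grey points reach down to 1141 reads.

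Members had more detected genes than comparison wells, with medians of 2632.5 against 2243 in WT and 2363 against 2197 in PD-1-/-. Their recovered reads had medians of 314231 against 291351 in WT and 308325 against 307588.5 in PD-1-/-. Fewer than 100000 reads were recovered in 2 WT and 1 PD-1-/- members, and in 22 and 13 comparison wells, of which the shallowest had 1141 and 1377 reads. Detection of any gene moves with these measures, and their part in the results was not tested beyond fits with matched wells. Such fits are given beside Gzmc and S100a4 and for the counts of calls, and not beside every result.

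Over all genes, few differences passed the test. Of 7465 genes tested by limma on log2(mean RPKM + 1) with the plate as a block, 2 were higher in members (0.0268%), Gzmc and S100a4, and 1 was lower (0.0134%), Snord42b. At an unadjusted p under 0.05, 1.81% of genes were higher and 3.52% lower. The median log2 ratio of all genes was -0.06 in WT and -0.08 in PD-1-/-. Any difference between the genotypes counted as error in this fit, which left 1 residual degree of freedom per gene. The error of each gene was moderated toward a trend over all genes, with 6.51 prior degrees of freedom. The p-values therefore do not measure the spread between the plates alone. When log values instead of RPKM were averaged over wells, which weighs how many wells are on above how high they are, 13 genes were higher, Cct4, Ctsw, Gem, Gzmc, Id2, Pld3, Ppm1g, Psmb8, Ramp1, S100a4, S100a6, Thy1 and Xcl1, and 5 lower, among them Ccl5, Klra18, Klra23 and Ms4a4b. In that fit 5.85% of genes were higher and 1.45% lower at an unadjusted p of 0.05, the reverse of the balance by mean RPKM.

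**Figure D2:**
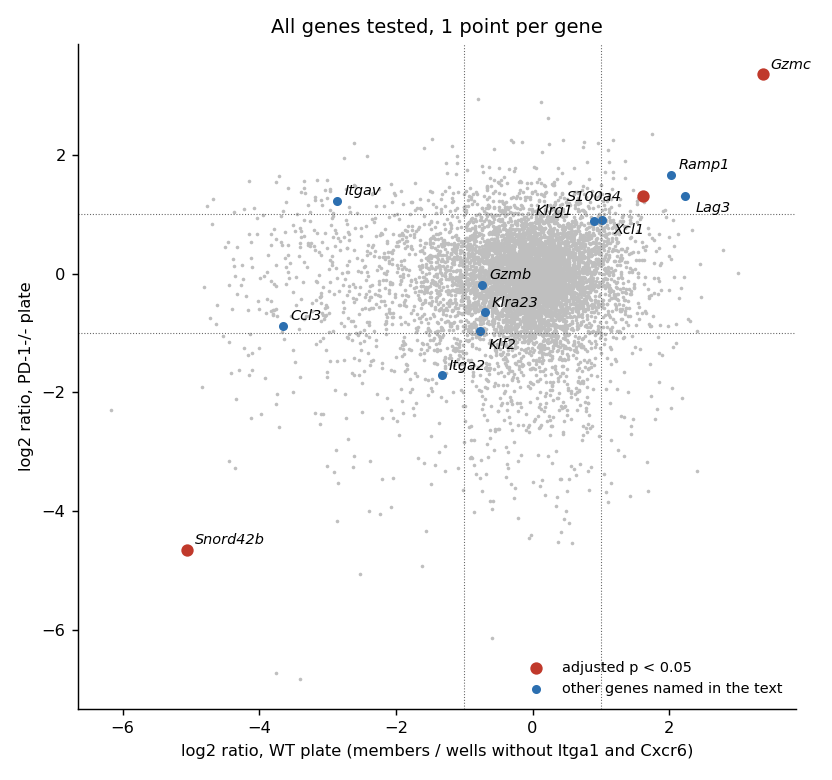
Log2 ratio of mean RPKM (pseudocount 1), members over wells without Itga1 and Cxcr6, in the WT plate (x axis) and the PD-1-/- plate (y axis). Each point is 1 of 7465 genes, red points passed the test, blue points are other genes of the text, and dotted lines mark 2-fold. Gzmc lies alone at the upper right with 3.37 and 3.35, and most genes lie near 0 in both plates.

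Gzmc, the gene of granzyme C, a granule protease of activated mouse cytotoxic lymphocytes, had the smallest p. In WT it ranged from 0 to 32193 RPKM in members (median 0) and from 0 to 14838 RPKM in comparison wells (median 0). In PD-1-/- it ranged from 0 to 21749 RPKM and from 0 to 4924 RPKM, again with medians of 0. The ranges overlapped: the gene was off in most cells of either kind, and members were more often on and reached higher. It was found in 46.2% of members against 29.8% of comparison wells in WT and in 36.6% against 15.5% in PD-1-/-; among the positive wells the median was 1806 against 221.8 RPKM in WT and 511 against 355.4 RPKM in PD-1-/-. Mean RPKM was 2547 against 244.9 in WT and 1294 against 125.6 in PD-1-/-, a log2 ratio of 3.36 ± 0.15 (SE, limma, adjusted p = 0.000287).

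A single well gave 48.6% of the summed Gzmc of WT members and another 41% in PD-1-/-, and without the highest well of each group the log2 ratios were 2.80 and 2.90. Counting only wells of at least 10 RPKM, 42.3% of WT members (23.4% to 63.1%) stood against 20.1% of comparison wells (15.6% to 25.2%), and 31.7% of PD-1-/- members (18.1% to 48.1%) against 11.5% (7.65% to 16.4%). In PD-1-/- these intervals lay apart and in WT they overlapped. The call was lost without the plate as a block (adjusted p = 0.655), without the trend (0.871), among wells of 1500 to 3000 detected genes (log2 ratio 2.32, adjusted p = 0.235), in plate rows A to H (1.53, adjusted p = 0.885), in rows I to P (3.39, adjusted p = 0.0756) and when comparison wells were weighted to the members' detected genes (2.47, adjusted p = 0.0606). The neighboring granzyme genes Gzmd, Gzme, Gzmf and Gzmg were each found in at most 1 member per plate, and near-identical sequence makes the split of reads between these genes uncertain.

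S100a4, the gene of a calcium-binding protein of motile cells, was on in most members. It ranged from 0 to 5958 RPKM in WT members (median 530) and from 0 to 16295 RPKM in comparison wells (median 0). In PD-1-/- the ranges were 0 to 4407 RPKM (median 278.4) and 0 to 23382 RPKM (median 0). Single comparison wells thus reached above every member in both plates. Members were more often on: 73.1% of WT members (52.2% to 88.4%) against 34.6% (29.1% to 40.4%), and 63.4% of PD-1-/- members (46.9% to 77.9%) against 31.9% (25.8% to 38.4%). Among positive wells the median was 742 against 462 RPKM in WT and 1236 against 416 RPKM in PD-1-/-. Mean RPKM was 1168 against 380 in WT and 1065 against 430 in PD-1-/-, a log2 ratio of 1.46 ± 0.15 (SE, limma, adjusted p = 0.0477). The call was near the threshold and held in 7 of 18 alternative fits, with log2 ratios from 1.01 to 3.67. It was lost when comparison wells were weighted to the members' detected genes (log2 ratio 1.01, limma, adjusted p = 0.176). Among wells of 1500 to 3000 detected genes it was lost too (1.16, adjusted p = 0.862), as it was without the plate as a block (0.352) and without the trend (0.871). Among wells with at least 100000 recovered reads, a fit chosen after seeing the data, the adjusted p was 0.00684.

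The called lower gene was a small nucleolar RNA gene, and it rested on a few shallow wells. Snord42b had mean log2 ratios of -5.05 in WT and -4.64 in PD-1-/- (limma, adjusted p = 0.00126), but 96.95% and 95.3% of its summed RPKM in the comparison wells came from wells with fewer than 100000 recovered reads, with up to 61508 RPKM in a well of 1377 reads. Without such wells its means were 10.2 RPKM in members against 11.4 in WT and 18.5 against 23.7 in PD-1-/-, and no gene was called lower (log2 ratio -0.25, adjusted p = 0.967).

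**Figure D3:**
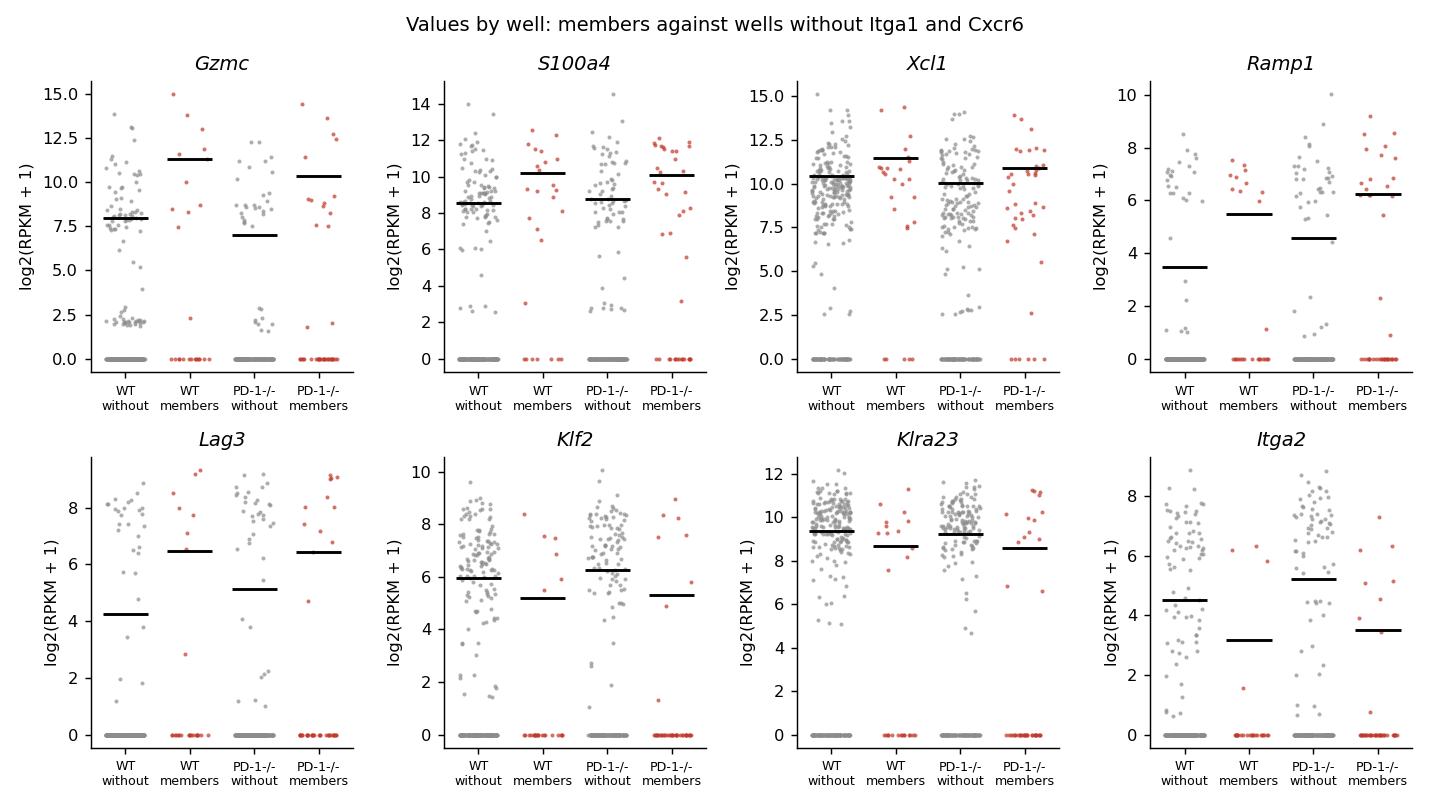
Values of single wells, as log2(RPKM + 1), for genes of the comparison, in wells without Itga1 and Cxcr6 (grey) and members (red) of each plate. Points at 0 are wells in which the gene was not detected. Gzmc and S100a4 were on in 46.2% and 73.1% of WT members against 29.8% and 34.6% of the grey wells.

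The start regions of Itga1 and of both called higher genes were read for short motifs of factors known in NK cells and resident lymphocytes. The 250 bases before each RefSeq gene start on GRCm38.p6 are given on the strand of the gene, 5′ to 3′, with matches to the RUNX core in capitals: Itga1 at chr13:115101965-115102214 (minus strand), Gzmc at chr14:56234658-56234907 (minus strand) and S100a4 at chr3:90603520-90603769 (plus strand).
Itga1: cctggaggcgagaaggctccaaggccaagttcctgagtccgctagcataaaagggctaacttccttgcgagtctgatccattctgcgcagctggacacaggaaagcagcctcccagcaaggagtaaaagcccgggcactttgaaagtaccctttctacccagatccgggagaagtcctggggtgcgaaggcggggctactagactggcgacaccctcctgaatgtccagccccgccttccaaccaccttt
Gzmc: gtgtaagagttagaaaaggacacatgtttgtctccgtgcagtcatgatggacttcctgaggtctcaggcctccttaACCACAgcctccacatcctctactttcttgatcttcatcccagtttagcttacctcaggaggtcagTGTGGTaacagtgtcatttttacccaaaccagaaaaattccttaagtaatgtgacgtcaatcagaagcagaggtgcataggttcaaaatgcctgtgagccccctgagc
S100a4: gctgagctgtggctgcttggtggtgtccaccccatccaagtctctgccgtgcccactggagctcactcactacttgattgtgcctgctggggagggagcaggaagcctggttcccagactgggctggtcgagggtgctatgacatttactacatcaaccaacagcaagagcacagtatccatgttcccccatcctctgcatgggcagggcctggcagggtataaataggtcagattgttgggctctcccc
The RUNX core TGTGGT occurred 2 times in the Gzmc region, first on the opposite strand (ACCACA, chr14:56234826-56234831) and then on the strand of the gene (chr14:56234760-56234765), and not in the others. It was found in 14.05% of 32851 such regions of the genome. The AP-1 site TGANTCA (6.749% of regions), the T-box core GGTGTGA (3.333%) and the SMAD box GTCTAGAC (0.1674%) occurred in none of the 3 regions on either strand. A match is a description of the letters only.

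Genes were also compared by how many wells were on. By a rule chosen after the values were seen, the intervals of the share of wells lay apart in both plates, members higher, for 2 of 7465 genes (0.0268%), S100a4 and Ramp1, and members lower for 0 genes (0.0%). Ramp1, which encodes a partner chain of the receptor for the neuropeptide CGRP, was found in 42.3% of WT members (23.4% to 63.1%) against 9.69% (6.53% to 13.7%), and in 46.3% of PD-1-/- members (30.7% to 62.6%) against 17.3% (12.6% to 22.8%). Its levels ran from 0 to 184.2 RPKM in WT members and 0 to 361.6 RPKM in comparison wells, and from 0 to 584 and 0 to 1038 RPKM in PD-1-/-. The log2 ratios of its means were 2.03 and 1.66, and it did not pass the test (limma, adjusted p = 0.691).

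A difference of at least 15 percentage points in both plates was found for 52 genes higher (0.697%) and 2 lower (0.0268%). Over all genes the share of wells was higher in members by a median of 4.39 points in WT and 1.14 points in PD-1-/-, as their detected genes were. Kept wells with at least 100000 recovered reads were then thinned to that number. The groups were drawn again on the thinned values, with 24 WT and 37 PD-1-/- members. A well that lost its Cxcr6 reads thus counted as Cxcr6-negative. Ramp1 was not among the genes with recovered reads. Over 5861 such genes the share of wells was still higher in members after thinning, by a median of 3.66 points in WT and 1.14 points in PD-1-/-. By at least 15 points in both plates, 47 of these genes were higher and 4 lower, of which 20 and 2 were the same as before. Among these 20, chosen here after their values were seen, were S100a4, Gzmc, Thy1, Gem, Lgals3 and Calm3. Thy1, a surface glycoprotein also used to mark innate lymphoid cells, was found in 80.8% of WT members against 58.1% and in 75.6% of PD-1-/- members against 53.98%. Both lower genes were Klf2, a transcription factor that maintains genes of tissue exit, and the Ly49 receptor gene Klra23. Klf2 was found in 23.1% of WT members against 44.3% and in 19.5% of PD-1-/- members against 42.04%. Klra23 was found in 46.2% against 63.7% and in 34.1% against 58.8%. By mean RPKM neither passed the test, with log2 ratios of -0.77 and -0.97 for Klf2 (limma, adjusted p = 0.878) and -0.70 and -0.65 for Klra23 (adjusted p = 0.867).

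Past 2-fold in both plates in the same direction, with no test, were 41 genes higher (0.549%) and 3.0% of genes lower. Of the lower genes 85.7%, and of the 41 higher genes 37, were found in 5% to 20% of wells. There 1 well can decide a mean. Of the 7465 genes tested, 3580 were found in such a share of wells. Besides Gzmc, the 10 highest by the mean of both log2 ratios were Fam110a, Ramp1, Pyroxd1, Lag3, AA467197, H1f0, Cdk8, Rgs10 and Cited4, with log2 ratios of 1.11 to 2.35 by plate. None of these 9 passed the test (adjusted p from 0.684 to 0.878). Lag3, an inhibitory receptor for MHC class II, was found in 30.8% of WT members against 10.4% and in 29.3% of PD-1-/- members against 16.4%, with mean RPKM of 87.9 against 17.9 and 86.7 against 34.3. AA467197 was found in 23.1% against 2.77% and in 19.5% against 6.19%. Pyroxd1 in PD-1-/- rested on 1 member well, and without the highest well of each group its log2 ratio there was -3.70. Without those wells the WT log2 ratios of Cdk8, Rgs10 and H1f0 fell to 0.13, 0.65 and 0.81. Those of Cited4 fell to 0.79 in WT and 0.95 in PD-1-/-. Fam110a, Ramp1, Lag3 and AA467197 stayed past 2-fold in both plates.

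The 10 lowest were 6 small RNA genes, Snord82, Snord42a, Snord42b, Snora81, Snord38a and Snora28, and Ctsl, Cpne7, Gm12942 and Isg20. As for Snord42b, 91.02% to 98.8% of the summed RPKM of Snord82, Snord42a and Snora81 in comparison wells came from wells with fewer than 100000 recovered reads, and 69.3% and 83.2% of that of Snord38a. Without such wells the log2 ratios went from -5.11 to -1.42 for Snord42a, from -3.79 to -0.80 for Snora81 and from -3.52 to -1.55 for Snord38a, and from -3.28 to -2.81 for Snora28. Snord82 then had means of 7.31 RPKM in WT members against 5.18 RPKM in comparison wells, and of 1.01 against 2.54 RPKM in PD-1-/-. Cpne7 was listed at 0 in all members, against 10.03% and 4.87% of comparison wells. Up to 11.5% of WT and 7.32% of PD-1-/- members may carry it, so that this difference was not detectable at this depth. Ctsl, a lysosomal protease, and the interferon-induced exonuclease gene Isg20 were listed at 0 in WT members, and were found in 2 and 1 of 41 PD-1-/- members. The counts allow up to 11.5% of WT members to carry a gene listed at 0, above the 7.61% of WT comparison wells with Ctsl and the 7.96% with Isg20, so that these differences were not detectable at this depth.

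Genes of tissue residency and type 1 innate lymphoid cells had higher means in members than in comparison wells more often than all genes did. None passed the test. Of 21 genes in the files, 15 could be tested and 0 were called, while 9 of the 15 had higher means in both plates (60% against 21.5% of all genes tested), with median log2 ratios of 0.23 in WT and 0.51 in PD-1-/-. At an unadjusted p under 0.05 there were 4 higher, Rgs1, Tmem176b, Cd160 and Ly6a. Rgs1, a brake on chemokine receptor signaling, had log2 ratios of 0.32 and 1.21, Cd160, an NK receptor gene, 0.91 and 0.51, and Ly6a, the gene of Sca-1, 0.86 and 1.39. The early activation and retention gene Cd69 did not follow, with -0.54 and 0.23, and Itgae, the gene of CD103, was found in 3.85% and 2.44% of members. Against Cxcr6-positive wells the list went the other way. There 12 of 19 genes tested had lower means in members in both plates (63.2% against 24.7% of all genes tested) and 1 higher. The median log2 ratios were -1.50 in WT and -0.70 in PD-1-/-, and 2 genes were called lower.

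Genes of circulating mature NK cells had lower means more often than all genes did, and none passed the test. Of 17 genes tested 0 were called, 8 had lower means in both plates (47.1% against 30.2% of all genes tested) and 3 higher, with median log2 ratios of -0.70 and -0.24. Itga2 was found in 15.4% of WT members against 26.6% and in 21.95% of PD-1-/- members against 28.8%, with log2 ratios of -1.33 and -1.71 (limma, adjusted p = 0.878). Klrg1, an inhibitory receptor of late-stage NK cells, went the other way, with 26.9% against 14.5% and 39.02% against 18.1% of wells and log2 ratios of 0.89 and 0.89 (adjusted p = 0.878). Eomes, the factor that separates conventional NK cells from type 1 innate lymphoid cells, was found in 69.2% of WT members against 66.1% and in 53.7% of PD-1-/- members against 66.8%, with log2 ratios of -0.05 and -0.63. The related factor Tbx21 had -0.31 and -0.45.

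Among 11 integrin genes tested 0 were called, with median log2 ratios of -0.23 and 0.11. Itgb1, the partner of CD49a, was found in every member, against 93.4% and 95.6% of comparison wells, with log2 ratios of 0.38 and 0.28 (limma, adjusted p = 0.878). Itgal and Itgb2, the chains of LFA-1, had log2 ratios between -0.23 and 0.18. The 15 tested genes of integrin adhesion machinery, such as talin (Tln1) and zyxin (Zyx), had medians of 0.06 and -0.19, and the 13 tested genes of TGF-beta signaling medians of -0.07 and -0.16. In both lists 0 genes were called and 0 passed an unadjusted p of 0.05. The receptor gene Tgfbr2 had 0.19 and 0.24, and the TGF-beta-responsive inhibitor Smad7 -0.07 and 0.39.

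Of 13 granule and death genes tested, 1 was called, Gzmc, and the median log2 ratios were 0.06 and 0.02. At an unadjusted p under 0.05 there were 2 higher, Gzmc and Ctsw, and 1 lower, Gzmb. Prf1, the gene of perforin, ranged from 293.9 to 3729 RPKM in WT members (median 1027; comparison median 1004) and from 0 to 5904 RPKM in PD-1-/- members (median 1346; comparison median 1107). Gzma had log2 ratios of -0.31 and 0.02, and Gzmb -0.74 and -0.18 (limma, adjusted p = 0.878). Ctsw, a cathepsin of cytotoxic lymphocytes, had 0.20 and 0.52 (limma, adjusted p = 0.878).

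Of 9 cytokine and chemokine genes tested 0 were called, and 3 had higher and 3 lower means in both plates. Xcl1, the chemokine for cross-presenting dendritic cells, had a median of 1232 RPKM in WT members against 606 RPKM and of 466 RPKM in PD-1-/- members against 200.8 RPKM. Its log2 ratios were 1.02 and 0.90, just short of the threshold (limma, adjusted p = 0.077), which 5 of 18 alternative fits passed. Without plate rows A and B its log2 ratio was 0.29 (adjusted p = 0.891), and in rows I to P 0.44 (adjusted p = 0.883). The 4 WT members of rows A and B had a mean of 11894 RPKM of Xcl1, against 1129 RPKM in rows C to P. Of the inflammatory chemokine genes, Ccl3 had log2 ratios of -3.65 and -0.88, Ccl4 of -1.43 and -0.56 and Ccl5 of -1.19 and -0.06 (adjusted p from 0.698 to 0.878). Ifng had 0.37 and -0.21.

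The remaining lists held 0 called genes. The 17 inhibitory and costimulatory receptors tested had medians of 0.23 and 0.10, with Lag3 and Cd226 (1.18 and 0.41) among the higher. The 8 Ly49 receptor genes had medians of -0.51 and -0.50, and 5 had lower means in both plates; these genes are near-identical to each other, and their reads may be split among them. The 5 chemokine receptors tested had medians of -0.07 and -0.31, the 14 cytokine receptors -0.11 and 0.02, the 20 lineage transcription factors 0.06 and -0.15, the 14 immediate early and Nr4a genes -0.13 and -0.40, and the 8 NK-like markers -0.13 and 0.02. Id2, a factor required by innate lymphoid cells, was found in every member, with log2 ratios of 0.47 and 0.39. Of the myeloid list 1 gene could be tested, Cd68 (-1.90 and -1.26), and 0 genes of the T-like, cycling-like, neutrophil-like, B-like, fibrosarcoma-like and ILC2 and ILC3-like lists.

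The members were not uniform. S100a4 was found in 12 of 12 WT members with Gzmc and 7 of 14 without, and in 13 of 15 and 13 of 26 PD-1-/- members. Lag3 was found in 5 of 12 against 3 of 14 in WT and in 8 of 15 against 4 of 26 in PD-1-/-. Lta, the gene of lymphotoxin alpha, was found in 4 of 12 and 2 of 15 members with Gzmc, and in 0 of 14 and 0 of 26 without, which allows up to 21.4% and 11.5%. Gzmc, S100a4 and Xcl1 were together in 11 of 26 WT and 13 of 41 PD-1-/- members. Ramp1 did not follow S100a4, with 8 of 19 against 3 of 7 in WT and 13 of 26 against 6 of 15 in PD-1-/-.

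Members with little and with more Itga1 were set side by side without a test. Gzmc was found in 9 of 20 WT members with Itga1 of at least 10 RPKM and in 3 of 6 below, and in 12 of 30 and 3 of 11 PD-1-/- members. Its mean was 3221 against 301.96 RPKM in WT and 1644 against 337.8 RPKM in PD-1-/-. S100a4 was found in 15 of 20 and 4 of 6 WT members and in 20 of 30 and 6 of 11 PD-1-/- members. Ramp1 was found in 7 of 20 against 4 of 6 in WT and in 14 of 30 against 5 of 11 in PD-1-/-, and Eomes in 12 of 20 against 6 of 6 and in 16 of 30 against 6 of 11. The 4 WT members in plate rows A and B held a mean of 10073 RPKM of Gzmc, against 1179 RPKM in rows C to P; in PD-1-/- the 6 members of rows A and B held 98.95 RPKM, against 1499 RPKM.

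**Figure D4:**
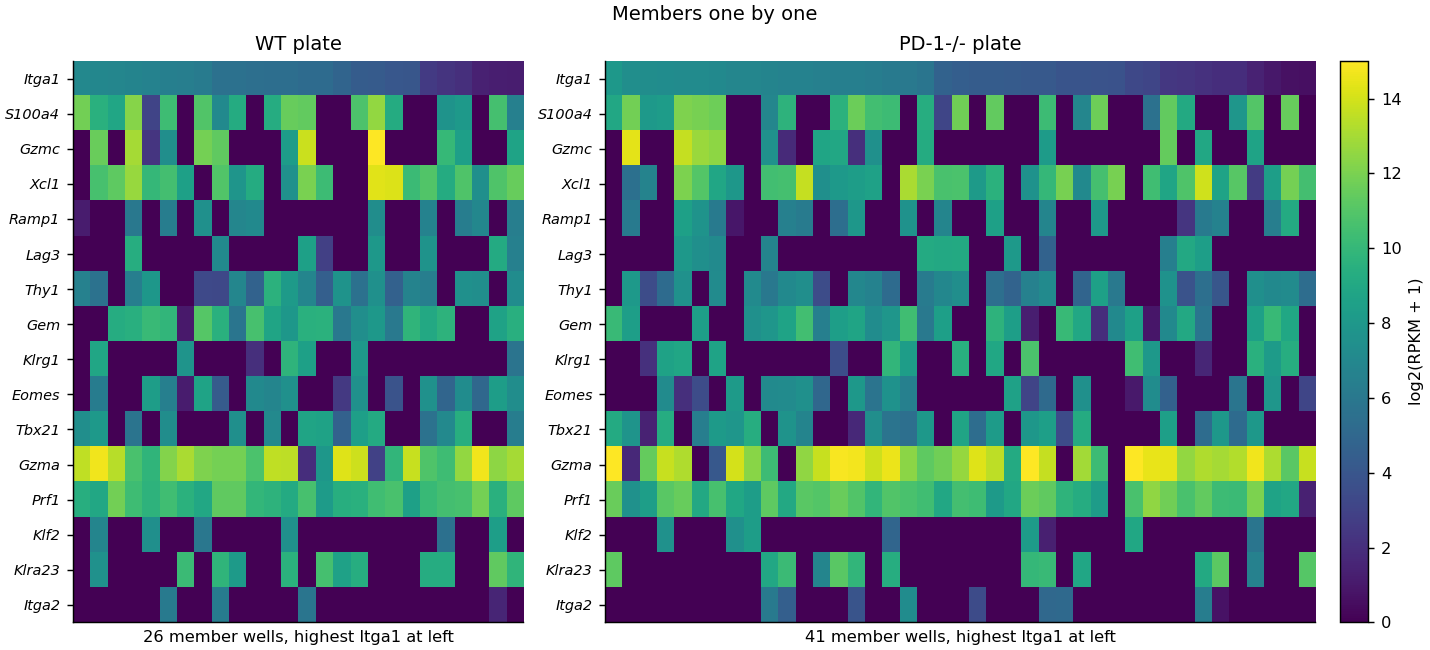
Values of single members as log2(RPKM + 1), with 1 column per well, ordered from the highest Itga1 at the left, for 26 WT and 41 PD-1-/- members. Prf1 and Gzma are bright in nearly every column, S100a4 and Xcl1 in most, and Gzmc in 12 and 15 columns that spread along the order.

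Set beside the wells with Cxcr6, members lay between the comparison wells and those with both genes for S100a4 and Gzmc. S100a4 was found in 9 of 9 WT wells with Itga1 and Cxcr6 and in 23 of 25 in PD-1-/-, with means of 4226 and 3338 RPKM, and in 3 of 5 and 22 of 29 wells with Cxcr6 alone, with means of 1119 and 1672 RPKM. Gzmc was found in 6 of 9 and 17 of 25 wells with both genes and in 2 of 5 and 10 of 29 of those with Cxcr6 alone. Xcl1 did not share this order: its mean was 2785 RPKM in WT members against 2789 RPKM in wells with both genes, and 1937 against 1746 RPKM in PD-1-/-. In Cd3-positive wells, which had 2 or more Cd3 genes, the Gzmc means were 171.3 and 110 RPKM.

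**Figure D5:**
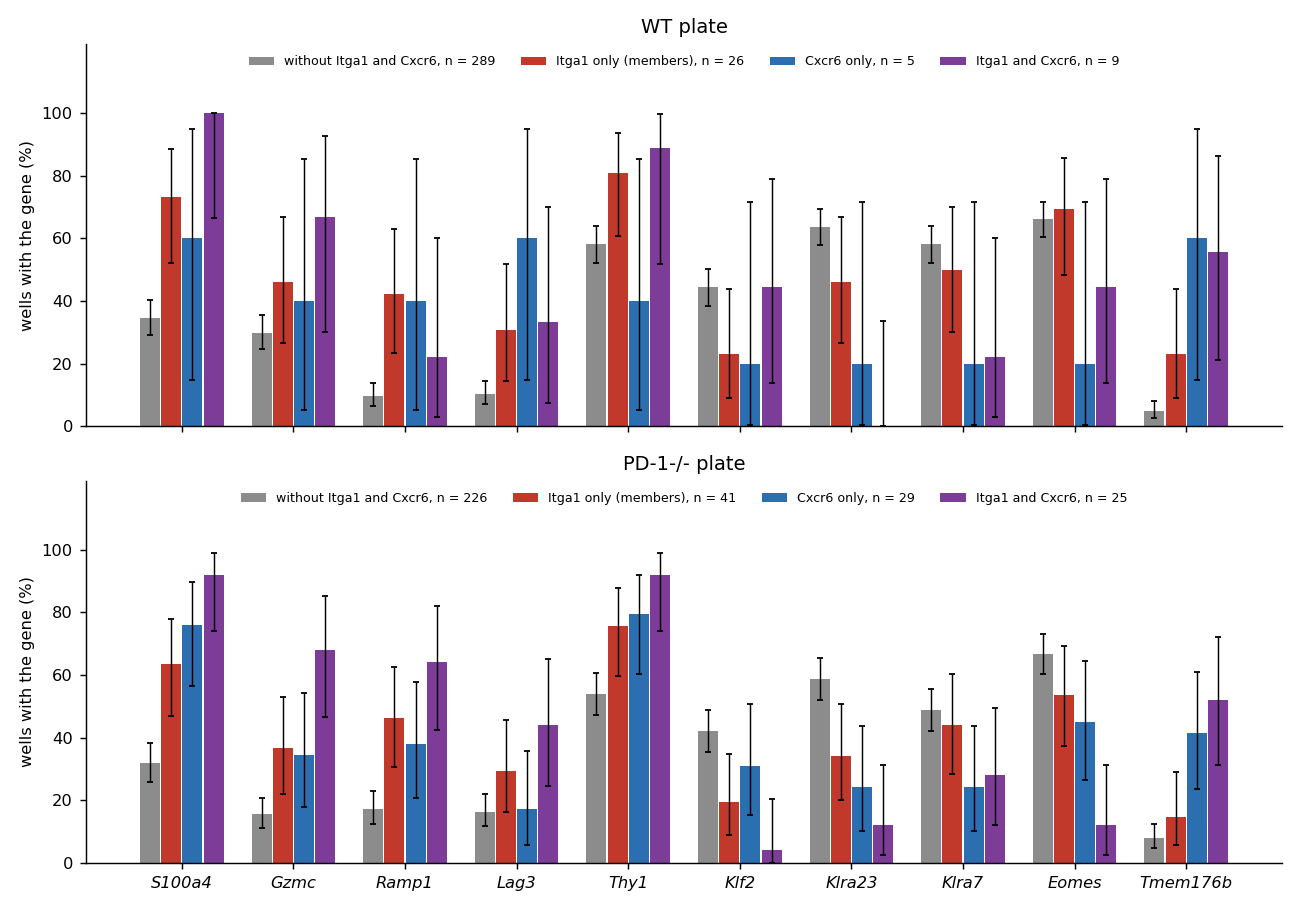
Percent of wells in which a gene was detected, by presence of Itga1 and Cxcr6, in the WT and PD-1-/- plates; bars are exact 95% intervals. S100a4 goes from 34.6% of wells with neither gene in WT to 73.1% of members and 100% of wells with both.

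Against all Cxcr6-positive wells (14 WT, 54 PD-1-/-), 11 of 7494 genes were higher in members (0.147%) and 14 lower (0.187%) by the same limma test, and 3.78% and 2.94% of genes were higher and lower at an unadjusted p of 0.05. The comparison shares the member wells with the one above, so both sets of values are given without a test of their overlap. Wells with at least 100000 recovered reads left 2 higher, Klra21 and Klra7, and 4 lower, S100a4, Cd74, Ifitm1 and Tmem176b. Without the plate as a block 0 were higher and 1 was lower, Ifitm1. The fit had 42.9 prior degrees of freedom against 1 residual, so a small adjusted p does not show that both plates had similar ratios.

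Of the 11 genes higher in members than in Cxcr6-positive wells, 5 were Ly49 family genes, and Gzma and Prf1 were others. The genes named from this comparison were chosen after their values were seen. Klra7 was found in 13 of 26 WT members against 21.4% and in 43.9% of PD-1-/- members against 25.9%, with log2 ratios of 2.35 and 1.73 (limma, adjusted p = 3.02e-06). Klra21 was listed at 0 in the Cxcr6-positive WT wells and found in 30.8% of WT members, and in 5.56% against 29.3% in PD-1-/- (adjusted p = 2.15e-06). Klra18, Klra23 and the pseudogene Klra13-ps were called too (limma, adjusted p from 0.000721 to 0.00155). Among alternative fits with the plate as a block, Klra7 passed in 11 of 16 and Klra21 in 10 of 16. Klra23 passed in 6 of 17, Klra18 in 3 of 16 and Klra13-ps in 2 of 16. The plates differed in size. In WT and PD-1-/- the log2 ratios were 8.01 and 2.97 for Klra21 and 7.09 and 1.95 for Klra18. They were 4.14 and 0.70 for Klra23 and 7.33 and 1.06 for Klra13-ps. Klra18 and Klra13-ps were also listed at 0 in the Cxcr6-positive WT wells, as Klra21 was, so their WT ratios depend on the pseudocount. Up to 21.4% of those WT wells may carry a gene listed at 0. Gzma had log2 ratios of 0.75 and 0.59 (adjusted p = 0.000165) and Prf1 of 0.91 and 0.89 (adjusted p = 0.0083). The other higher genes were Gars, a glycyl-tRNA synthetase, Lta4h, an enzyme of leukotriene B4 synthesis, Pigu and the small GTPase gene Gem (adjusted p from 0.00487 to 0.027). Among alternative fits with the plate as a block, Gars passed in 6 of 17, Lta4h in 4 of 17, Pigu in 2 of 16 and Gem in 2 of 17. Excluding any Cd3 gene left 0 genes higher. Eomes, with 69.2% against 35.7% and 53.7% against 29.6% of wells and log2 ratios of 2.13 and 1.47, did not pass (adjusted p = 0.394).

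The genes lower in members than in Cxcr6-positive wells with the smallest p were Ifitm1, Cd74 and S100a4. Cd74, the invariant chain of MHC class II, had log2 ratios of -4.72 and -3.14 (limma, adjusted p = 8.48e-09) and was found in 7.69% of WT members against 21.4% and 12.2% of PD-1-/- members against 35.2%. In WT 1 well held 96.4% of the summed Cd74 of the Cxcr6-positive wells, and without the highest well of each group the log2 ratios were -1.69 and -3.52. Over the alternatives its log2 ratio ran from -6.27 to 0.80. Ifitm1, an interferon-induced membrane gene, was listed at 0 in WT members and found in 4.88% of PD-1-/- members, against 7.14%, 1 well, and 16.7% (adjusted p = 4.06e-10). Tmem176b, a residency list gene of a membrane channel, was found in 23.1% against 57.1% and 14.6% against 46.3% (-1.59 and -2.53, adjusted p = 9.16e-05). S100a4 had -1.41 and -1.20 (adjusted p = 9.57e-07) and Gzmc -0.82 and -0.69 (adjusted p = 0.00379). Tmem176a, Ly6c2, Ifitm2, Ccl5, Cd7, Ifng, the checkpoint receptor gene Ctla4 and the small RNA genes Snord82 and Snora16a were called lower as well (adjusted p from 0.000183 to 0.0394). Several of these calls rested on few wells. Ifng was found in similar shares, 38.5% against 35.7% and 36.6% against 35.2%, 1 Cxcr6-positive well held 66.5% of its sum in WT and another 63.8% in PD-1-/-, and without the highest wells its log2 ratios went from -1.71 and -1.47 to -0.67 and -0.71. Over the alternatives the log2 ratio of Ifng ran from -2.75 to 1.26. Single wells held at least 93.3% of the Cxcr6-positive sums of Snord82 and Snora16a, and with at least 100000 recovered reads the log2 ratio of Snord82 was -0.74 (adjusted p = 0.978). Ctla4 passed in 1 of 16 alternative fits with the plate as a block and Ifitm2 in 3 of 16, and the highest log2 ratio was 0.06 for either. The log2 ratio of Ifitm2 was -5.30 in WT and -0.14 in PD-1-/-. Ramp1, Lag3 and Xcl1 did not pass in this comparison, with adjusted p of 0.706, 0.989 and 0.997.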

How the data were processed

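Single NK cells of MTAP1A tumors were sorted from 1 pool of 3 WT and 1 pool of 3 PD-1-/- mice. The deposited values are RPKM, which the authors scaled to the length of each gene and to the mapped reads of each well, for 24490 gene entries in each of 768 wells. The submitters' processing notes name TopHat, Cufflinks and the builds mm9 and mm10 without a version or role, and the tables hold no coordinates. The raw counts were not used here.

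A gene was present above 0 RPKM. Detected genes were counted over the 14761 entries found in at least 3 wells, and 42 wells outside 1000 to 3500 were left out. Whole reads were recovered from the steps of low RPKM values, of which 98.74% were whole within a relative tolerance of 1e-05, and served only for depth and thinning. Wells were not screened for doublets.

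RPKM was averaged over the wells of a plate and group, log2(mean + 1) was fitted in limma 3.58.1 (R 4.3.3) with plate as a block and a mean-variance trend, and p-values were adjusted over all genes by Benjamini-Hochberg, with calls under 0.05. The pairing comes from the shared pool of mice. Tested genes had a mean of at least 5 RPKM and were found in at least 5% of wells. Itga1, Cxcr6, Cd3d, Cd3e and Cd3g were not tested. Fits were tested on simulated data. Other values used Python 3.11.15, numpy 2.4.6, pandas 2.3.3, scipy 1.17.1 and matplotlib 3.10.9. Start regions came from RefSeq on GRCm38.p6, and 3 of 3 genes matched by symbol.

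Genes named are those of the lists, the 10 called higher and 10 lower with the smallest p, and, past 2-fold in both plates, the 10 highest and 10 lowest, or all where fewer exist. Other genes were chosen after their values were seen. The members, the lists and the rules were chosen with earlier results of these data known. The alternatives changed the filters on genes and wells, the pseudocount, the scaling, the averaging, the fit, the depth, the Cd3 limit and the plate rows, and wells with at least 100000 recovered reads and values without the highest well of each group were chosen after seeing the data. One gene withheld for evaluation is not reported here.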

Additional observations from a re-analysis of the deposited data

Results flagged for a closer look

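Itgav, the alpha V integrin chain, had a log2 ratio of -2.86 in the WT plate and 1.23 in the PD-1-/- plate, members over wells without Itga1 and Cxcr6. It was brought up because the ratios point in opposite directions, and the difference was not tested. It was found in 2 of 26 WT members, with a mean of 0.20 RPKM against 7.73 RPKM, and in 8 of 41 PD-1-/- members, with 8.50 against 3.06 RPKM.

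Itga1 was also found in wells that the comparisons did not use. Among wells with 2 or more Cd3 genes it was present in 41.9% of 31 in WT (24.5% to 60.9%) and in 53.3% of 45 in PD-1-/- (37.9% to 68.3%), above the 8.25% and 15.4% of Cxcr6-negative wells under the Cd3 limit. Among wells outside the limits on detected genes it was present in 25% of 24 in WT (9.77% to 46.7%) and in 27.8% of 18 in PD-1-/- (9.69% to 53.5%).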

How the results depend on the processing

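Shares of wells that were members moved by less than their intervals under every alternative that changed them, and all but 4 values of the 22 genes followed kept their direction. Part of these values could not turn. Leaving out the block or the trend, or changing the filter on low genes, does not change the log2 ratio of a gene. Most genes followed lay past 2-fold in the same direction in both plates, which fixed the direction of each plate alone. The 4 values that turned were the log2 ratios of Pyroxd1 after thinning (-1.03) and with presence set at 10 RPKM (-1.34), of Cdk8 in plate rows A to H (-1.52), and of Snora81 when log values were averaged (0.022). Gzmc passed in 12 of 18 alternative fits (log2 ratios 1.53 to 3.59), S100a4 in 7 of 18 and Snord42b in 10 of 17.

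Counts of calls moved widely, here given as higher and lower against wells without Itga1 and Cxcr6, then against Cxcr6-positive wells. Without the plate as a block they were 0 and 0, then 0 and 1, and without the trend 0 and 0, then 0 and 0; the block pairs groups from the same pool. Weighting to detected genes gave 0 and 1, then 1 and 6; thinning gave 2 and 0, then 2 and 4, as did wells with at least 100000 recovered reads, chosen after seeing the data. Limits of 1500 to 3000 detected genes gave 0 and 0, then 0 and 0, keeping all wells 3 and 8, then 2 and 6, and excluding any Cd3 gene 3 and 9, then 0 and 1. Plate rows A to H gave 0 and 0, then 0 and 4, rows I to P 0 and 1, then 3 and 2, and rows C to P 1 and 1, then 7 and 6. No filter on low genes gave 1 and 3, then 2 and 7, the stricter filter 3 and 1, then 17 and 14, a pseudocount of 0.1 gave 1 and 1, then 4 and 8, and one of 10 gave 3 and 7, then 11 and 16. Averaged log values gave 13 and 5, then 12 and 8, scaled wells 1 and 1, then 5 and 9, and presence from 10 RPKM 1 and 1, then 11 and 15. The cause of these changes was not tested.

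Genes past 2-fold in both plates, 0.549% of those tested higher and 3.0% lower, became 0.920% and 5.94% without a filter, 0.0944% and 0.566% under the stricter filter, 0.0804% and 0.415% with a pseudocount of 10, 0.844% and 0.0804% with averaged log values, 1.69% and 6.78% in rows A to H and 1.35% and 7.49% in rows I to P, and 0.972% were higher within 1500 to 3000 detected genes. Leaving out 1 plate leaves no residual degree of freedom, so each plate's values stand in for it. With 26 and 41 members, a gene at 0 may be in up to 11.5% and 7.32% of them.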
